A study of Mus musculus with 6 samples.

Results

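Collagen folding and processing enzymes are the proteins that hydroxylate, chaperone, trim and bind procollagen on its way out of the cell. They were followed here in the lungs of 6 wild type mice, 3 fed a high fat diet and 3 fed a control diet, with 1 Affymetrix array per mouse. The 10 genes were listed by name and role (Serpinh1, Plod1, Plod2, Plod3, P4hb, P4ha2, Crtap, Bmp1, Pcolce and Sparc). Every probe set whose platform annotation names only 1 of them was taken, which gave 18 of the 45101 probe sets on the array. All mice of both groups were wild type and the tissue was lung, and the labels do not say which part of it was taken. Strain, sex, age and the length of the diets were not stated in the labels. The high fat and control mice carry the same replicate numbers, but nothing in the labels ties same-numbered mice together. The labels do not say whether mice shared a litter, cage or extraction. The p-values therefore weigh the diet difference only against the spread within the groups of these 6 samples. The numbers in the sample titles are lower in all control mice than in all high fat mice. What they mark is not stated, and a batch that follows them cannot be told apart from diet.

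Procollagen chains are modified in the endoplasmic reticulum (ER) before they fold. Prolyl 4-hydroxylases make the hydroxyproline that stabilises the triple helix, lysyl hydroxylases make the hydroxylysine used for sugars and cross-links, and the chaperone HSP47, the product of Serpinh1, binds the folded helix. Outside the cell, proteinases remove the propeptides so that fibrils can form, and matrix-binding proteins such as SPARC take part in fibril assembly. In lung, most fibrillar collagen is made by fibroblasts, while several of these enzymes also serve other secretory cells.

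Signals are MAS5 intensities, 1 per probe set and array, which the authors scaled to a common trimmed mean of 500 per array. A probe set was tested if its log2 signal, averaged over all 6 mice, was at or above the 40th percentile, and 15 of the 18 did. A probe set is called where the limma adjusted p, taken over all 27022 tested probe sets, is under 0.05. The array median was 113 to 129 in high fat and 143 to 150 in control mice, so dim probe sets ran lower on the high fat arrays. RNA integrity was read from control probe sets at both ends of a transcript. The signal at the 3' end over that at the 5' end was 0.915 ± 0.0538 in high fat and 0.768 ± 0.0259 in control mice for Gapdh (SD, n = 3 each). For b-Actin it was 1.52 ± 0.0219 in high fat and 1.31 ± 0.122 in control mice (SD, n = 3 each). Neither ratio overlapped between the groups (two-sided exact permutation p = 0.1 for both, the smallest that 3 against 3 allows). The part of RNA integrity in the differences below was not tested. Lung epithelium was well represented: 3 markers of alveolar type II cells summed to 104276 to 121082 in high fat and 77837 to 127461 in control mice.

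The chaperone Serpinh1, the prolyl 3-hydroxylation subunit Crtap and the procollagen C-proteinase Bmp1 were higher in the lungs of high fat mice, by 1.51-fold to 1.64-fold. The lysyl hydroxylases, both prolyl 4-hydroxylase subunits, Pcolce and Sparc were not called. Of the 15 tested probe sets, 4 rose, 0 fell and 11 were not called by limma, and 7 had an unadjusted p under 0.05, all of them higher. Among all 27022 tested probe sets, 8394 had an unadjusted limma p under 0.05, in either direction. Among all tested probe sets 4.63 percent were called higher, and 12.9 percent were called in either direction. Of these 3486 calls 1251 were higher, while with arrays centred on their median 4359 of 5445 were. With each gene read from its brightest probe set, 3 of 10 genes rose and 0 fell. Of all 12689 genes, 6.75 percent were called and 4.56 percent were called higher. All high fat mice lay above all control mice for 8 of the 15 probe sets and 5 of the 10 genes, against 14.6 percent of all tested probe sets and 19.7 percent of all genes. The median log2 difference, high fat minus control, was 0.31 over the 10 genes and 0.06 over all genes. Quantile normalization, another way to make arrays comparable, lowered the difference relative to the median of all genes for each of the 10. Lung was measured in bulk, so more cells of a type and more RNA per cell cannot be told apart.

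**Figure D1:**
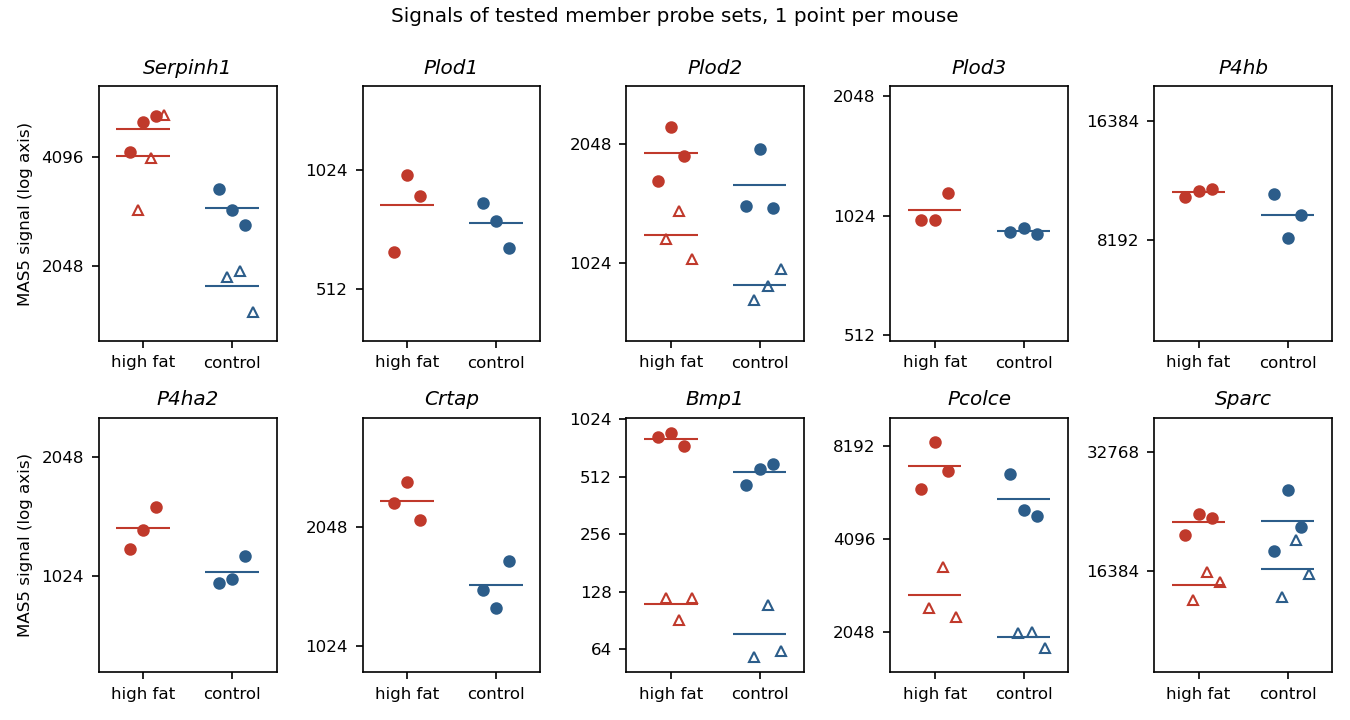
MAS5 signal on a log axis of the 15 tested probe sets of the 10 genes, 1 point per mouse, with high fat mice left of control mice and a line at each group mean. Filled circles are the brightest probe set of a gene and open triangles its other tested probe set. Circles of Serpinh1, Crtap, Bmp1, P4ha2 and Plod3 do not overlap between the diets, and those of Sparc overlap fully.

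Serpinh1 encodes HSP47, a chaperone of the ER that binds triple-helical procollagen and is retrieved from the Golgi. Its brighter probe set, 1450843_a_at, had signals of 4221, 5130 and 5315 in high fat mice, against 3336, 2929 and 2652 in control mice. Every high fat mouse exceeded every control mouse, and the lowest of them was replicate 1. The mean was 4889 ± 586 in high fat and 2972 ± 344 in control mice (SD, n = 3 each), a 1.64-fold difference with a 95% interval of 1.33 to 2.03. The limma adjusted p was 0.0151 over probe sets and 0.0207 over genes. The other probe set, 1456733_x_at, had 2931, 4063 and 5371 in high fat mice, against 1915, 1984 and 1526 in control mice. It rose 2.23-fold (95% interval 1.60 to 3.10, limma adjusted p = 0.0135), with the same order of the high fat mice as the brighter one. Identifiers that end in _x_at mark probe sets with probes that can bind other transcripts, so the brighter one is the safer measure of the size. The brighter probe set was not called over probe sets without control replicate 2 (limma adjusted p = 0.0582) or control replicate 3 (0.0694), with log2 differences of 0.64 to 0.82 over the 6 fits that leave out 1 mouse. The other one was not called without control replicate 3 (0.0601). Over genes, Serpinh1 was also not called without high fat replicate 2 (0.0617) or 3 (0.0559).

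Crtap encodes the cartilage-associated protein, which acts with prolyl 3-hydroxylase 1 and cyclophilin B in the complex that 3-hydroxylates collagen chains. Its signals were 2361, 2657 and 2133 in high fat mice, against 1417, 1282 and 1683 in control mice. The groups did not overlap. The means of 2384 ± 263 in high fat and 1461 ± 204 in control mice (SD, n = 3 each) differed 1.64-fold (95% interval 1.31 to 2.04). The limma adjusted p was 0.0173 over probe sets and 0.0245 over genes. It was 0.0501 over probe sets without control replicate 1, 0.0676 without control replicate 2 and 0.0508 without high fat replicate 2, while the log2 difference stayed between 0.62 and 0.82.

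The promoters of Serpinh1 and Crtap are shown because these genes had the highest differences of the brightest probe sets. Both sequences are from RefSeq, build GRCm38.p6, and run from 250 bases before to 50 bases after the annotated start, written 5′ to 3′ on the strand of the gene. Serpinh1 is at chr7:99353190-99353489 on the minus strand and Crtap at chr9:114390663-114390962 on the minus strand. Capitals mark the letters CCACG or their reverse complement CGTGG, which form the 3′ end of the ER stress response element.
Serpinh1: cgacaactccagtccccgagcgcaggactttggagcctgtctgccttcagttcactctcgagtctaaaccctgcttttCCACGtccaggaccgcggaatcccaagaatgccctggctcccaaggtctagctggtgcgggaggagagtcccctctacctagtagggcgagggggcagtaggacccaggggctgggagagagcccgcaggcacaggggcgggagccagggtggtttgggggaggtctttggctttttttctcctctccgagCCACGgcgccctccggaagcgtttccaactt
Crtap: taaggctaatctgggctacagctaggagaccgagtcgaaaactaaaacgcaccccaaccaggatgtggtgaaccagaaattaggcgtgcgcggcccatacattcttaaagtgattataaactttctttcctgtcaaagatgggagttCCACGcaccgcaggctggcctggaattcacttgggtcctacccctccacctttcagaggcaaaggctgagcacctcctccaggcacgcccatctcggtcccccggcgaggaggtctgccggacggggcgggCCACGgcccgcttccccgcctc
Each holds the letters 2 times. In Serpinh1 they begin at bases -172 and 20 counted from the start, and in Crtap at bases -103 and 29. CCACG on either strand was found in 6 of the 8 member promoters in the table and in 32.8 percent of all 32851 promoters of this length. The 6 include those of P4hb, P4ha2, Plod1 and Pcolce, which were not called. The full element, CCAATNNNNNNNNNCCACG on either strand, was found in 0 of the 8 and in 0.119 percent of all promoters. GGGCGG, the core of the Sp1 site, was in 6 of the 8 and in 35.7 percent of all, and CCAAT in 2 of the 8 (Plod3 and P4hb) and in 37.4 percent of all. These matches describe the letters of a window and not bound sites. Plod2 and Bmp1 were not matched.

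Bmp1 encodes bone morphogenetic protein 1, the proteinase that cleaves the C-propeptides of fibrillar procollagens and also activates lysyl oxidase. Its brightest probe set, 1426238_at, had signals of 821, 869 and 740 in high fat mice, against 465, 558 and 595 in control mice. The groups did not overlap, and the means of 810 ± 65.3 in high fat and 539 ± 67.3 in control mice (SD, n = 3 each) differed 1.51-fold (95% interval 1.19 to 1.90). This call lay near the threshold, with a limma adjusted p of 0.0345 over probe sets and 0.0488 over genes. Over genes it was lost in each of the 6 fits that leave out 1 mouse (up to 0.131, without control replicate 1), and over probe sets in 5 of them, the exception being high fat replicate 3. A dimmer probe set, 1427457_a_at, had 119, 91.4 and 119 in high fat mice, against 58.3, 109 and 62.6 in control mice. Its log2 difference of 0.57 was close to the 0.59 of the brightest one, but the groups overlapped and it was not called (95% interval -0.23 to 1.36, limma adjusted p = 0.302). A further probe set, 1427458_at, had signals of 8.54 to 30.4 in high fat and 5.32 to 14.7 in control mice and was not tested.

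**Figure D2:**
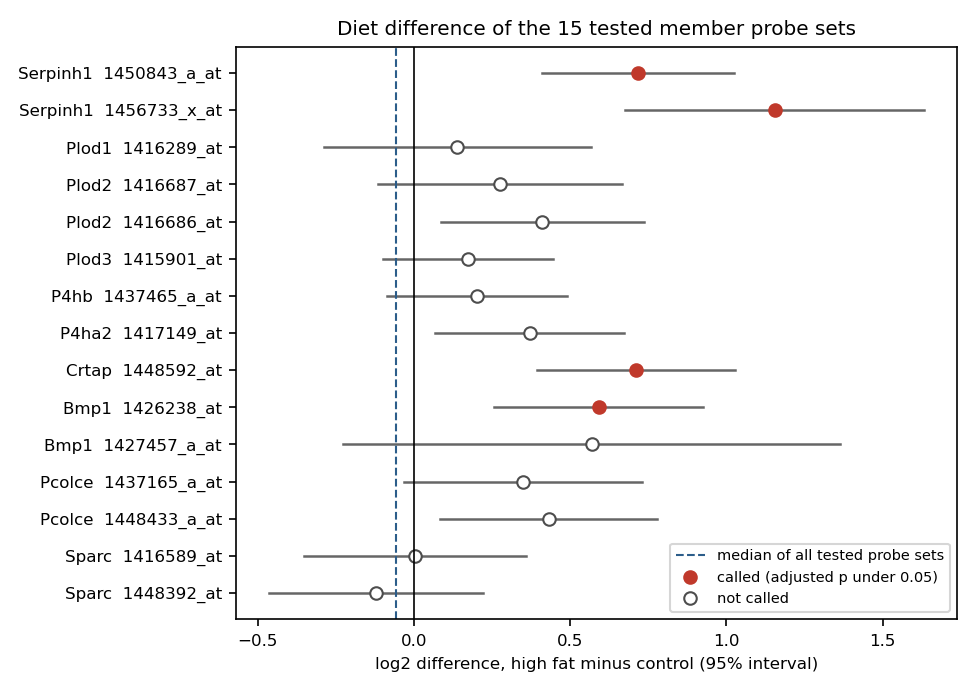
Log2 difference, high fat minus control, of the 15 tested probe sets on the horizontal axis, with 95% intervals from limma as lines. Filled points are the 4 called probe sets, of Serpinh1, Crtap and Bmp1, and the dashed line is the median of all tested probe sets at -0.06.

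Pcolce encodes the procollagen C-proteinase enhancer, which binds the C-propeptide and speeds its removal by BMP1. Its brighter probe set, 1437165_a_at, had 5920, 8412 and 6790 in high fat mice, against 6619, 5071 and 4870 in control mice. The groups overlapped through control replicate 1, and the 1.27-fold difference was not called (95% interval 0.978 to 1.66, limma adjusted p = 0.194). The dimmer one, 1448433_a_at, had 2447, 3337 and 2302 in high fat mice, against 2038, 2062 and 1826 in control mice. It did not overlap between the groups and was 1.35-fold higher, but did not pass the test (limma adjusted p = 0.0971). High fat replicate 2 was the highest mouse in both probe sets.

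The prolyl 4-hydroxylase is a tetramer of alpha subunits, which hold the active site, and of the beta subunit P4HB, which is also the general ER protein disulphide isomerase. P4ha2, an alpha subunit, had signals of 1199, 1339 and 1526 in high fat mice, against 985, 1003 and 1151 in control mice. The groups did not overlap, by a narrow margin between high fat replicate 1 and control replicate 3. The 1.29-fold difference had an unadjusted p of 0.0225 and was not called (95% interval 1.05 to 1.60, limma adjusted p = 0.102). P4hb was among the brightest members, at 10551, 10922 and 11049 in high fat mice, against 10715, 8285 and 9456 in control mice. The groups overlapped through control replicate 1, and the 1.15-fold difference was not called (95% interval 0.941 to 1.40, limma adjusted p = 0.316).

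The lysyl hydroxylases differ in their substrates: PLOD1 acts mainly on the helix, PLOD2 on the telopeptides whose hydroxylysines form stable cross-links, and PLOD3 also transfers sugars to hydroxylysine. None of their 4 tested probe sets was called. Plod2 had 1652, 2253 and 1901 in high fat mice, against 1427, 1988 and 1407 in control mice, by probe set 1416687_at. These groups overlapped through control replicate 2 (1.21-fold, 95% interval 0.924 to 1.59, limma adjusted p = 0.309). Its dimmer probe set, 1416686_at, did not overlap, with 1177, 1386 and 1043 in high fat mice, against 825, 891 and 984 in control mice, but missed the threshold (1.33-fold, limma adjusted p = 0.0919). High fat replicate 2 was again the highest mouse in both.

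Plod3 had 998, 1000.3 and 1167 in high fat mice, against 931, 951 and 920 in control mice. The groups did not overlap, yet the 1.13-fold difference was small (95% interval 0.933 to 1.36, limma adjusted p = 0.361). Plod1 had 635, 990.4 and 879 in high fat mice, against 843, 760 and 647 in control mice. High fat replicate 1 was the lowest of the 6 mice, and the 1.10-fold difference was not called (95% interval 0.819 to 1.48, limma adjusted p = 0.656). Without high fat replicate 2 its log2 difference was 0.00, and over the 6 fits with 1 mouse left out it reached 0.32. A second Plod1 probe set, 1445893_at, lay at 48.4 to 116 in high fat and 31.6 to 56.4 in control mice and was not tested.

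Sparc, a secreted glycoprotein that binds fibrillar collagens and calcium, was not called. Its brightest probe set, 1416589_at, had 20260, 22816 and 22255 in high fat mice, against 18459, 26261 and 21116 in control mice. The high fat values lay within the control range, and the means of 21777 ± 1343 in high fat and 21945 ± 3967 in control mice (SD, n = 3 each) were nearly equal. The fold was 1.00, with a 95% interval of 0.783 to 1.28 (limma adjusted p = 0.993). The other bright probe set, 1448392_at, had 13850, 16248 and 15329 in high fat mice, against 14120, 19592 and 16071 in control mice (0.919-fold, 95% interval 0.725 to 1.16, limma adjusted p = 0.622). A dim probe set of Sparc, 1458204_at, had 23.8 to 86.0 in high fat and 74.7 to 80.4 in control mice and was not tested.

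Within the high fat group, replicate 2 had the highest signal for 9 of the 15 probe sets and replicate 3 for 6, while replicate 1 was lowest for 10 and highest for 0. Over all 6 mice, high fat replicate 2 was highest 7 times, high fat replicate 3 6 times and control replicate 2, through Sparc, 2 times. Control replicate 3 was lowest 6 times and control replicate 1 5 times. High fat replicate 1 was the mouse with the highest summed signals of smooth muscle (49506), cardiac muscle (117846) and adipocyte markers (33683). High fat replicate 2 had the highest summed signals of fibroblast (49110) and mesothelial markers (16510).

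Several marker lists moved with the diet, and their part in the differences of the collagen enzymes was not tested. Of 6 tested adipocyte markers, 5 were called higher, and their summed signal was 24000 to 33683 in high fat and 3675 to 7632 in control mice. Of 7 smooth muscle markers, 2 were called higher, with sums of 24855 to 49506 in high fat and 16717 to 20798 in control mice. Of 6 mesothelial markers, 4 were called higher, with sums of 11634 to 16510 in high fat and 6855 to 7271 in control mice. Of 10 fibroblast markers, only Col14a1 was called higher, and the sums of 40369 to 49110 in high fat and 34355 to 37303 in control mice did not overlap. Of 5 endothelial markers, Emcn and Pecam1 were called lower, and the sums overlapped (18353 to 23082 in high fat, 21688 to 28305 in control mice). Skeletal muscle markers summed to 1142 to 19498 in high fat and 507 to 63479 in control mice, highest in replicate 1 of each group. Of 6 cardiac muscle markers, Myl7 was called higher, with sums of 30896 to 117846 in high fat and 13752 to 33139 in control mice. Of 6 cartilage markers, 1 was bright enough to test, Chad, at 704 to 2401 in high fat and 353 to 609 in control mice (log2 difference 1.36, limma adjusted p = 0.0762 over genes). Of 3 tested leukocyte markers limma called 0, and their sums were 4175 to 6568 in high fat and 7434 to 9439 in control mice. Of these 3, 1 had an unadjusted limma p under 0.05 (Ptprc, lower), as did 3238 of all 12689 genes in either direction. Without replicate 1 of both groups, 1 member gene was called, Serpinh1, with a log2 difference of 0.91 (limma adjusted p over genes = 0.0229), while those of Crtap and Bmp1 were 0.70 and 0.48.

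Collagen chains are the substrates of these enzymes. Of 25 tested chains, 4 rose and 1 fell, where 4.56 percent of all genes were called higher and 2.2 percent lower, and the list median was 0.29. Col1a1, a chain of type I collagen, had 1973, 1750 and 2131 in high fat mice, against 1334, 869 and 1161 in control mice, with no overlap (log2 difference 0.82, limma adjusted p = 0.0282 over genes). Its partner Col1a2 had 9582, 9524 and 10995 in high fat mice, against 7744, 8149 and 6468 in control mice, and was not called (log2 difference 0.43, limma adjusted p = 0.0838). Col5a1 (0.82) and Col5a2 (0.47), chains of the type V collagen that starts fibrils, and the fibril-associated Col14a1 (0.55) rose as well. Col12a1, another fibril-associated collagen, fell by 1.03 on the log2 scale (limma adjusted p = 0.0181). It was not called without control replicate 1, 2 or 3 (limma adjusted p = 0.0613, 0.0698 and 0.0735) or with all its probe sets averaged (0.537). With 1 mouse left out, 0 or 1 chain was called higher and 0 or 1 lower. Col14a1 was at -0.091 when all its probe sets were averaged, and the chains that are also fibroblast markers, Col13a1 and Col14a1, count in both lists.

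**Figure D3:**
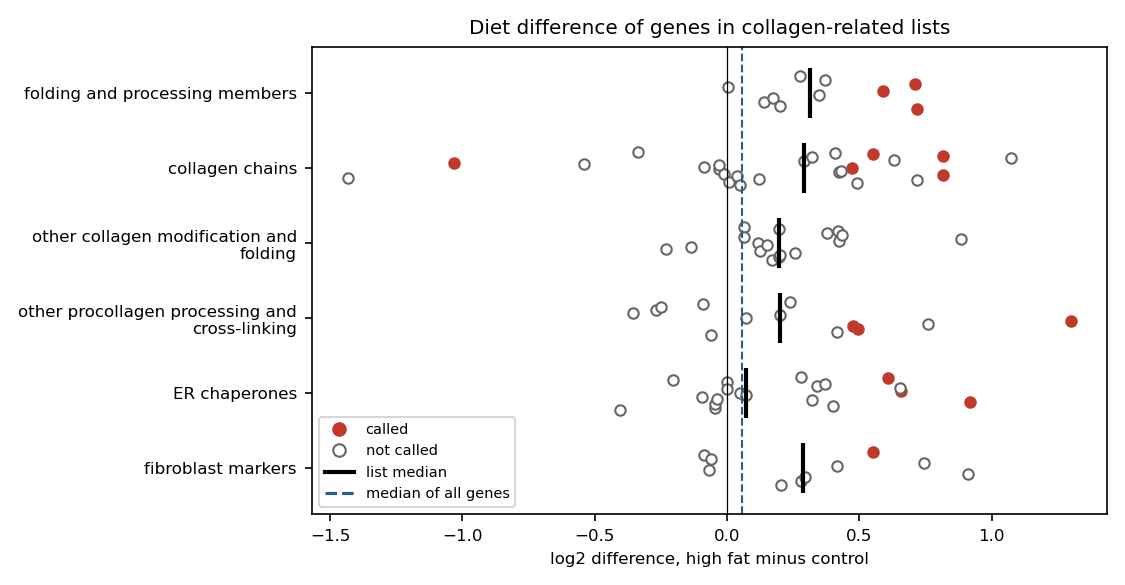
Log2 difference, high fat minus control, of each tested gene of the 10 members, of 4 further lists of collagen and ER genes and of fibroblast markers, 1 point per gene. Filled points passed the test over all genes, black bars are list medians and the dashed line is the median of all genes at 0.06. Members, collagen chains and fibroblast markers had medians of 0.31, 0.29 and 0.29, and ER chaperones 0.07.

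Other genes of collagen modification, folding and export held 0 limma calls among 17 tested (4 at an unadjusted p under 0.05, all higher), with a median log2 difference of 0.20. Of all 12689 genes, 3238 had an unadjusted limma p under 0.05, in either direction. The lowest p-values were those of Creb3l1, an ER-bound transcription factor of collagen-secreting cells (0.88), the vesicle coat gene Sec23a (0.42), the procollagen export receptor Mia3 (0.44) and P3h4 (0.38), with limma adjusted p over genes of 0.0618, 0.071, 0.0711 and 0.119. The partners of Crtap, P3h1 and Ppib, had log2 differences of 0.15 and 0.06 and were not called. The alpha subunit P4ha1 was at 0.12 and was not called either. These last genes were chosen for their role after their values were seen.

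Of 13 tested genes of propeptide removal, cross-linking and fibril assembly, 3 rose and 0 fell, with a median of 0.20. Of all genes, 4.56 percent were called higher and 2.2 percent lower. Fmod, a proteoglycan that guides fibril growth, had 457, 427 and 486 in high fat mice, against 160, 237 and 168 in control mice (log2 difference 1.30, limma adjusted p = 0.0121 over genes). Loxl1, a lysyl oxidase-like cross-linking enzyme, and the proteoglycan Bgn rose by 0.48 and 0.50 (limma adjusted p = 0.0455 and 0.0488). Dcn, a further small proteoglycan, was at 0.42 and not called. Dcn and Lum are also fibroblast markers and count in both lists. With 1 mouse left out, 0 to 3 of these genes were called higher, and 0 without control replicate 3.

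Of 19 general ER chaperones and stress genes, 3 rose and 0 fell, with a median of 0.07. The shares called over all genes were 4.56 percent higher and 2.2 percent lower. Calr, the calcium-binding lectin chaperone, had 9174, 9536 and 9380 in high fat mice, against 6453, 6313 and 5147 in control mice (log2 difference 0.66, limma adjusted p = 0.0201 over genes). Creld2 and Manf, small ER-stress-inducible proteins, rose by 0.92 and 0.61 (limma adjusted p = 0.0208 and 0.0488). Hyou1, a large ER chaperone, was at 0.66 and missed the threshold (0.0528). The count was 0 without control replicate 2, control replicate 3 or high fat replicate 3. At an unadjusted limma p under 0.05, 7 of the 19 were higher and 0 lower, against 3238 of all 12689 genes in either direction. The log2 difference was positive for 13 of the 19. The chaperones Hspa5, Hsp90b1 and Canx, at 0.40, 0.37 and 0.34, did not overlap between the groups and were not called. All high fat mice lay above all control mice for 19.7 percent of all genes. Xbp1, Ddit3 and Atf4, transcription factors of the ER stress response, had log2 differences of -0.04, 0.00 and 0.07. These last 6 genes were named after their values were seen.

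A difference within an array does not depend on how arrays were scaled, so each member was also set against collagen I on the same array. The measure is the log2 signal of the member minus the mean log2 signal of Col1a1 and Col1a2. High fat minus control, it differed by 0.09 for Serpinh1, 0.09 for Crtap and -0.03 for Bmp1, and in each of these the groups overlapped (two-sided exact permutation p = 0.5, 0.7 and 0.9). Relative to collagen I, 3 members, Sparc, P4hb and Plod3, were lower in every high fat mouse than in any control mouse. The same held for 58 percent of all 12689 genes, whose median difference in this measure was -0.57, where Col1a1 and Col1a2 themselves differed by 0.82 and 0.43. A count of 3 of 10 is therefore not a result about these members. Sparc was at 2.30 ± 0.16 in high fat and 2.92 ± 0.39 in control mice, P4hb at 1.30 ± 0.12 in high fat and 1.72 ± 0.08 in control mice, and Plod3 at -2.07 ± 0.05 in high fat and -1.62 ± 0.16 in control mice (log2, SD, n = 3 each). These 3 differences had a two-sided exact permutation p of 0.1 each, the smallest that 3 against 3 allows, so no ratio could pass the test. For Plod1, Plod2, P4ha2 and Pcolce the difference was -0.49 to -0.25 and the groups overlapped. Without high fat replicate 2, 6 members were lower without overlap, as were 68.5 percent of all genes.

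**Figure D4:**
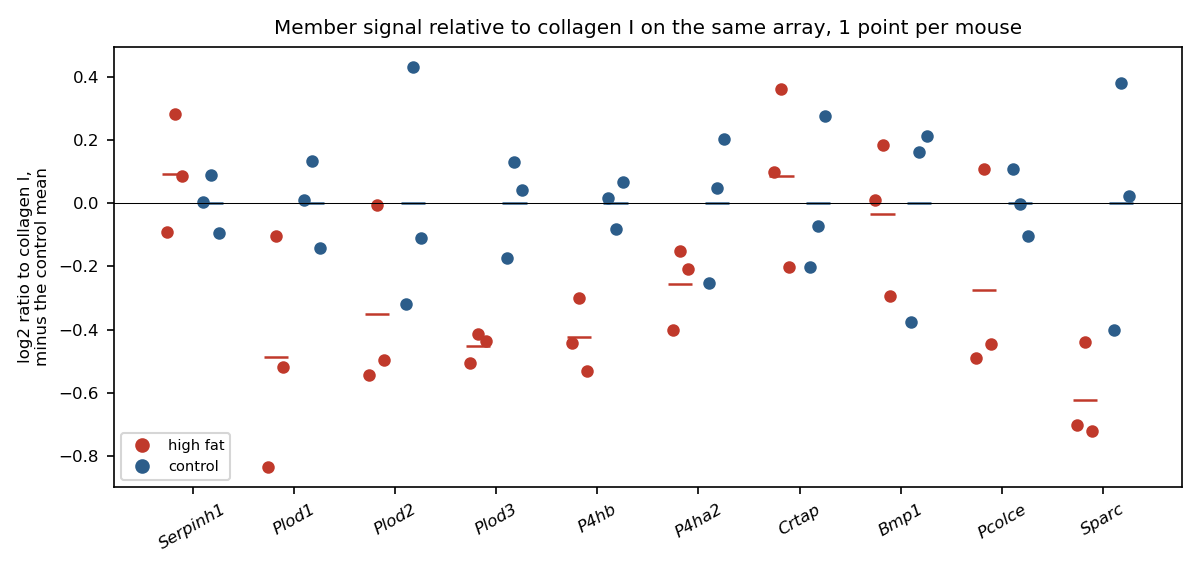
Log2 signal of each member relative to collagen I on the same array, with the control mean of each gene set to 0, 1 point per mouse and high fat left of control. High fat mice of Sparc, P4hb and Plod3 lie below all control mice, as for 58 percent of all genes, and those of Serpinh1, Crtap and Bmp1 overlap with them.

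Over 17 alternative settings, the log2 difference was 0.64 to 0.99 for Serpinh1, 0.62 to 0.98 for Crtap and 0.48 to 0.87 for Bmp1. Serpinh1 and Crtap were each called over genes in 12 of the 17 settings and Bmp1 in 5. Centring arrays on their median, which moved the median of all genes by 0.27, gave 7 called members, with P4ha2, P4hb, Pcolce and Plod3 added. Of all 12689 genes, 3197 were then called, 3051 of them higher. Relative to the median of all genes, which such centring cannot change, the differences were 0.66 for Serpinh1, 0.65 for Crtap and 0.53 for Bmp1. Over all settings they ran from 0.55 to 0.97 for Serpinh1, 0.56 to 0.76 for Crtap and 0.42 to 0.77 for Bmp1. Relative to that median Sparc was at -0.05 and P4hb at 0.14, and P4hb was at -0.07 with quantile normalization. That setting lowered the relative difference of all 10 members, among them Plod2 from 0.22 to 0.13 and Pcolce from 0.29 to 0.15.

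**Figure D5:**
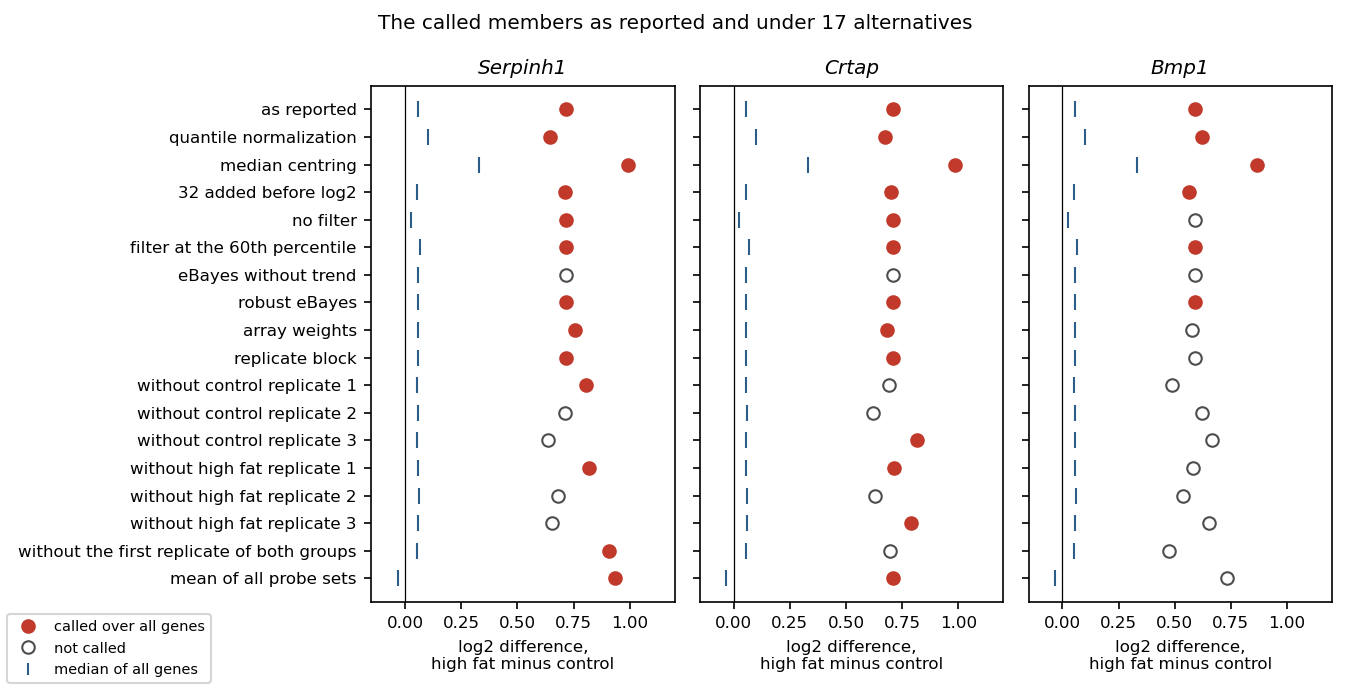
Log2 difference, high fat minus control, of Serpinh1, Crtap and Bmp1 as reported and under 17 alternative settings, with the median of all genes as a blue tick. Filled points were called over all genes. Every point lies above its tick, between 0.48 and 0.99.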

How the data were processed

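Lung RNA of 6 mice was measured on arrays with 45101 probe sets, per the deposited table. The deposited values are intensities on a linear scale made by the authors with MAS5, per the submitters' processing notes. The MAS5 version was not stated in the labels. With 2 percent of probe sets trimmed at each end, the mean of every array is 500, so arrays were scaled by the authors and a signal is relative to its array. No detection calls were used, and the number of arrays limits the precision.

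Gene symbols came from the platform annotation, and 34958 probe sets name 1 symbol. The 18 member probe sets were looked up by Entrez identifier in RefSeq and all 18 symbols were unchanged. Values under 1 were set to 1, log2 was taken, and 64 control probe sets and those under a mean log2 signal of 6.14 (a signal of 70.3) were left out. The test was limma 3.58.1 in R 4.3.3, a two-sided lmFit and eBayes fit of diet alone, its prior variance following mean signal, which leaves 4 residual degrees of freedom. Adjustment was by Benjamini-Hochberg over 27022 probe sets and, for genes, over the 12689 brightest tested probe sets. Log2 differences are high fat minus control. Intervals are 95% limma intervals of 1 probe set. The fit was tested on simulated data over 27022 probe sets, where it called 32 of 100 probe sets changed 2-fold and 75 of 100 changed 4-fold, with 3 false calls. No other probe sets were changed there, while 3486 were called in the data. The adjusted p depends on how many probe sets change, so these shares do not give the power of the comparison made here. Alternatives were quantile normalization, median centring, an added 32, other filters, other variance models, a replicate block, the mean of a gene's probe sets, and leaving out mice.

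Members, lists and settings were chosen with earlier results of these data known. Of each further list the text names the called genes and up to 4 with the smallest p, and of tissue markers up to 3 by signal. Outside that rule, Emcn, Col1a2, Col13a1, P3h1, Ppib, P4ha1, Lum, Hspa5, Hsp90b1, Canx, Xbp1, Ddit3 and Atf4 were named after their values were seen.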

Additional observations from a re-analysis of the deposited data

How the results depend on the processing

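The direction of Serpinh1, Crtap and Bmp1 was the same under all 17 alternatives run. With arrays centred on their median, 9 member probe sets and 7 member genes were called higher, as were 10 collagen chains, 6 other modification and folding genes, 6 processing and cross-linking genes and 9 ER chaperones. So were 3051 of all 12689 genes. In eBayes without a trend limma called 0 member genes (4 at an unadjusted p under 0.05), 0 chains higher, 0 chains lower, 0 ER chaperones and 1 processing and cross-linking gene. Of all 12689 genes, 2803 had an unadjusted limma p under 0.05 in that setting. Quantile normalization called 1 modification and folding gene and 1 processing and cross-linking gene. No filter called 1 processing and cross-linking gene. The mean of all probe sets called 1 chain higher and 1 lower, 0 processing and cross-linking genes and 1 ER chaperone, and turned Col14a1 to -0.091. Without replicate 1 of both groups, 2 member probe sets, 1 member gene, 1 chain higher, 0 lower and 1 processing and cross-linking gene were called. With 1 mouse left out, member probe sets called higher numbered 1 to 4 and member genes 0 to 2, chains higher 0 to 1 and lower 0 to 1, modification and folding genes 0 to 1, and processing and cross-linking genes and ER chaperones 0 to 3 each. Member genes called numbered 0 without control replicate 2 or high fat replicate 2, and limma then gave 4 at an unadjusted p under 0.05 in each. Over all 12689 genes limma gave 2585 and 2878 at an unadjusted p under 0.05 in these 2 fits. Members whose ratio to collagen I did not overlap numbered 3 to 6, with 6 without high fat replicate 2 (68.5 percent of all genes), and the high fat minus control difference in the 3' to 5' ratio ran from 0.13 to 0.18 for Gapdh and 0.16 to 0.28 for b-Actin. The sign of Sparc was not settled. Its brightest probe set was at -0.22 with quantile normalization, -0.11, 0.14 and -0.018 without control replicate 1, 2 or 3, -0.032 and -0.014 without high fat replicate 2 or 3, -0.064 without replicate 1 of both groups and, as the mean of its probe sets, -0.28. Its other bright probe set was at 0.15 with median centring and ran from -0.23 without control replicate 1 to 0.0044 without control replicate 2. Fewer mice leave fewer degrees of freedom, and for the other changes the cause was not tested.

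Replicate numbers were not taken to pair the mice, since the labels tie none together and deviations from the group means correlated at 0.17, 0.11 and -0.04 between same-numbered mice, and high fat replicate 3 correlated best with control replicate 2. Over all genes, 857 were called as reported, of them 578 higher, and 3197 with median centring, of them 3051 higher. Without a trend 136 genes were called, with 1 mouse left out 160 to 566 and without replicate 1 of both groups 307, the mean of all probe sets gave 472 and the replicate block 737. Probe sets called numbered 721 to 3307 with 1 mouse left out and 1274 without replicate 1 of both groups. With the replicate block, 3 member probe sets and 2 member genes were called (Bmp1 was not), 2 chains were called lower and 1 processing and cross-linking gene higher. Signals of the untested probe sets of Plod1, Bmp1 and Sparc are too dim for a size to be read.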
